A study of Mus musculus with 2116 samples.

Results

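The genes described here are 8 phosphatases with the Dusp symbol, Dusp1, Dusp2, Dusp4, Dusp5, Dusp6, Dusp7, Dusp10 and Dusp11, chosen by name from the 23725 genes of a single-cell count table of spleen CD4+ T cells. In 816 regulatory T cells (Treg) and 1300 conventional T cells (Tconv), 6 of the 8 genes gave at least 1 unique molecular identifier (UMI, a tag that marks 1 captured RNA molecule), and 2 gave none. Both groups came from the spleen of male B6 Foxp3-Ires-Gfp mice, a reporter strain in which cells that transcribe Foxp3 also make green fluorescent protein, at 8 months of age. Cells were sorted as live, T cell receptor (TCR) beta positive and CD4 positive, and captured in droplets with inDrops. The sort text names GFP positive cells for both groups, so Treg and Tconv are the title codes TR and TC as the series title spells them out. Each group is 1 library, and the labels name no individual animals.

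Dual-specificity phosphatases of the MAP kinase phosphatase family switch off MAP kinases by removing the phosphates from both the threonine and the tyrosine of the activation loop. They are sorted by where they act and on what: Dusp1, Dusp2, Dusp4 and Dusp5 are nuclear and are induced as early response genes by the signals they later damp, Dusp6 and Dusp7 are cytoplasmic and prefer ERK, and Dusp10 prefers JNK and p38. In T cells the TCR activates all of these kinases, and several of the phosphatases are induced after TCR stimulation. Dusp11 goes against the group name: it is an RNA phosphatase that acts on the 5′ triphosphate end of RNA and is not known as a MAP kinase phosphatase, so it is given apart from the other 7.

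The upstream sequences of 4 genes are shown because they cover the range of expression seen here: Dusp2 and Dusp11 had the most UMIs, Dusp1 few, and Dusp5 none. RefSeq promoter windows on GRCm38.p6 were given for 7 of the 8 genes, all but Dusp4, and each was trimmed to the 250 bases before the annotated start. Each sequence runs 5′ to 3′ on the gene's own strand, and capitals mark TGACG on either strand (the core of the cyclic AMP response element, read as CGTCA on the other strand) and the CArG box, the element of serum response factor. The windows are chr17:26508473-26508722 on the minus strand for Dusp1, chr2:127335909-127336158 on the plus strand for Dusp2, chr19:53528895-53529144 on the plus strand for Dusp5 and chr6:85961668-85961917 on the minus strand for Dusp11.
Dusp1: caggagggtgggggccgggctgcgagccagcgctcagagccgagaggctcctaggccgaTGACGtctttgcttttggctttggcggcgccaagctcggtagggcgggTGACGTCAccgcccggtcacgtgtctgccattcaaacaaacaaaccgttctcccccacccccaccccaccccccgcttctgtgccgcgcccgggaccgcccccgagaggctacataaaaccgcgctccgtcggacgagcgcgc
Dusp2: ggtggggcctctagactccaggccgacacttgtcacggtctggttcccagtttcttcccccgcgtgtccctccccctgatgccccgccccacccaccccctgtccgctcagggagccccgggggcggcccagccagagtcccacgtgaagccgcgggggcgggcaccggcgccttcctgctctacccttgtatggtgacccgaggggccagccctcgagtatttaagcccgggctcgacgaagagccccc
Dusp5: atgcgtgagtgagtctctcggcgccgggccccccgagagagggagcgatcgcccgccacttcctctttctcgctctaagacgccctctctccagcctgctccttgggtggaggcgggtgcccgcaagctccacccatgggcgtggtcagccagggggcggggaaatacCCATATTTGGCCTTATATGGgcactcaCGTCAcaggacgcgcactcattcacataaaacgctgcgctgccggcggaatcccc
Dusp11: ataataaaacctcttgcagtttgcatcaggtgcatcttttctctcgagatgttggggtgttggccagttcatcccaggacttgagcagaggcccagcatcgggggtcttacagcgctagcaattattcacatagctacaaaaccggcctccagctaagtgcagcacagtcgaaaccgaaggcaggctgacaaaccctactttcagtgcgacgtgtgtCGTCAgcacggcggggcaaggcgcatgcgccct

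Dusp1 had 3 matches to TGACG, of which 2 are the overlapping strands of 1 palindromic TGACGTCA. Dusp5 had 1 match to TGACG and 2 adjacent CArG boxes, and Dusp11 had 1 match to TGACG. On either strand, TGACG was in 17.8% of 32851 RefSeq windows of the same length, TGACGTCA in 1.55% and the CArG box in 1.47%. TGANTCA, the AP-1 element, was searched as well, was in 6.75% of the windows and in none of the 7. The windows of Dusp2, Dusp6, Dusp7 and Dusp10 held none of these letters. These matches describe the sequence and were not tied to any binding measurement.

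The libraries held 1468203 UMIs in Treg and 2002752 in Tconv, with a median of 1688.5 UMIs per Treg cell and 1510.5 per Tconv cell, over a median of 31.3 mapped reads per UMI in Treg and 18.7 in Tconv per the labels. Foxp3, the transcription factor that defines the Treg lineage, had 558 UMIs in Treg against 6 in Tconv, as the group labels would have it. At least 1 UMI of the T lineage list (Cd3d, Cd3e, Cd3g, Cd4 and Lck are the genes of it in the table) was in 90.1% of Treg and 94% of Tconv cells. Marker genes of other cells (B, plasma, myeloid, plasmacytoid dendritic, erythroid, CD8 or NK cells, or platelets) reached 3 UMIs of a list in 54 Treg cells (6.62%) and 29 Tconv cells (2.23%), with B cell genes at 684 and 179 counts per 1000000 UMIs (CPM), myeloid genes at 550 and 293 CPM and plasma cell genes at 17.0 and 196 CPM in Treg and Tconv. The libraries share 12 cell barcodes. With 1 library per group there is no test: intervals are exact at 95%, cover counting error only, and are too narrow where UMIs of a gene sit together in few cells. A difference between mice, sorts or library preparations cannot be told apart from one between Treg and Tconv.

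Dusp2 was the most counted of the 8 genes in both groups and was higher in Treg. It lies at chr2:127336159-127338376 on the plus strand of GRCm38 and encodes a nuclear phosphatase of ERK. Dusp2 had 762 UMIs in Treg, or 519 CPM (483 to 557), and 475 UMIs in Tconv, or 237 CPM (216 to 259). The level was 2.19-fold higher in Treg, a log2 ratio of 1.13 (0.96 to 1.30), beyond the counting error of both libraries. Dusp2 made up 64.1% of the UMIs of all 8 genes in Treg and 46.8% in Tconv.

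Dusp1, the first described member of the family and active on p38, JNK and ERK in the nucleus, was far less counted and also higher in Treg. It had 35 UMIs in Treg, or 23.8 CPM (16.6 to 33.2), and 13 UMIs in Tconv, or 6.49 CPM (3.46 to 11.1). The log2 ratio was 1.88 (0.92 to 2.92). The UMIs came from 27 Treg cells and 11 Tconv cells, with at most 4 in a Treg cell and 3 in a Tconv cell. Its interval is wide and includes the ratio of Dusp2.

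Dusp4 and Dusp5, the remaining nuclear members, had no UMI in either library. With the limit set at 3 UMIs, a count of 0 allows up to 2.04 CPM in Treg and 1.498 CPM in Tconv, and a UMI in up to 0.368% of Treg and 0.231% of Tconv cells. Both genes are rows of the table. Levels below these limits were not detectable at this depth.

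The ERK-selective cytoplasmic pair and Dusp10 had somewhat lower CPM in Treg, within counting error. Dusp6 counted 24 UMIs in Treg against 40 in Tconv, and its log2 ratio was -0.29 (-1.08 to 0.48). Dusp7 counted 38 UMIs in Treg against 70 in Tconv, and its log2 ratio was -0.43 (-1.04 to 0.16). Dusp10, the JNK and p38 phosphatase, counted 56 UMIs in Treg against 104 in Tconv, and its log2 ratio was -0.45 (-0.94 to 0.04). All 3 point estimates lie below 0 and all 3 intervals include it. Dusp10 came nearest to a difference: with the total scaled by TMM, which shifts all genes alike, its log2 ratio was -0.60 (-1.10 to -0.12). The depth of these genes limits how firmly they can be read: after thinning to 1000 UMIs, the Dusp7 ratio was -0.94 (-1.83 to -0.12) in one random draw and -0.18 (-1.05 to 0.66) in another, and that of Dusp10 was -0.58 (-1.32 to 0.13) and -0.95 (-1.74 to -0.22).

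Dusp11, the RNA phosphatase, was the second most counted gene and was close to equal between the groups. It had 274 UMIs in Treg, or 187 CPM (165 to 210.1), and 314 UMIs in Tconv, or 157 CPM (140 to 175). The log2 ratio of 0.25 (0.01 to 0.49) lies near the median of all measured genes, 0.14. After each cell was thinned to 1000 UMIs the ratio was -0.01 (-0.34 to 0.32).

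Of the 6 members that reached 20 UMIs over the pair of libraries, 2 were at least 2-fold higher in Treg, Dusp1 and Dusp2, and none was 2-fold lower. Among all 8988 genes with that many UMIs, 8.61% were at least 2-fold higher and 3.6% at least 2-fold lower in Treg, and the median log2 ratio was -0.02 for the 6 members. Dusp2 lies close to the 2-fold line: its log2 ratio was 0.97 (0.81 to 1.14) with TMM factors and 0.997 (0.83 to 1.17) with ribosomal protein genes left out of the totals, which leaves Dusp1 alone past it. In CPM, the order in Treg was Dusp2, Dusp11, Dusp10, Dusp7, Dusp1 and Dusp6, and in Tconv Dusp2, Dusp11, Dusp10, Dusp7, Dusp6 and Dusp1. Neighbours from Dusp10 down had overlapping intervals in Treg. In Tconv those of Dusp10 and Dusp7 overlapped, Dusp6 lay just clear below Dusp7, and Dusp1 below Dusp6. The assay counts RNA 3′ ends, so levels are per molecule captured and were not divided by gene length.

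**Figure D1:**
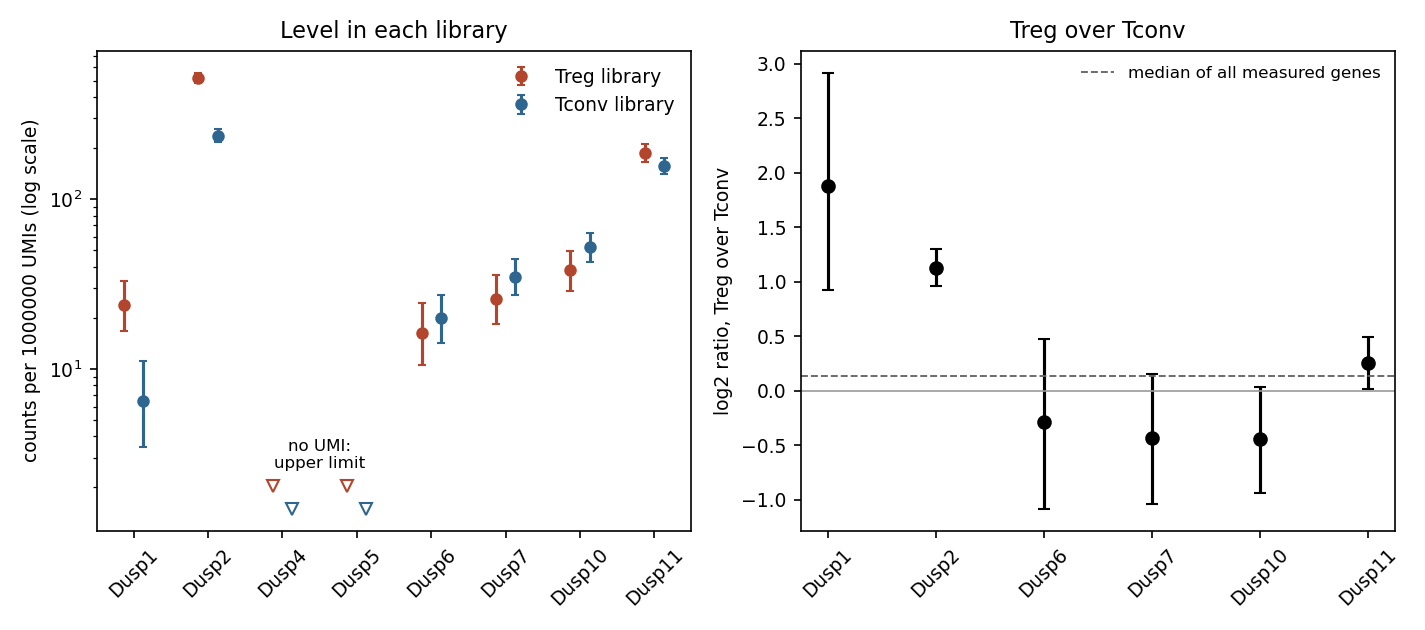
Left, level of each of the 8 genes in counts per 1000000 UMIs on a log scale in the Treg and Tconv libraries, with exact 95% Poisson intervals; open triangles are the upper limits of 3 UMIs where none was counted. Right, log2 ratio of Treg over Tconv with its exact 95% interval, beside the median of all measured genes at 0.14. Intervals of Dusp1, Dusp2 and, narrowly, Dusp11 (from 0.01) lie above 0, and those of Dusp6, Dusp7 and Dusp10 include it.

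**Figure D2:**
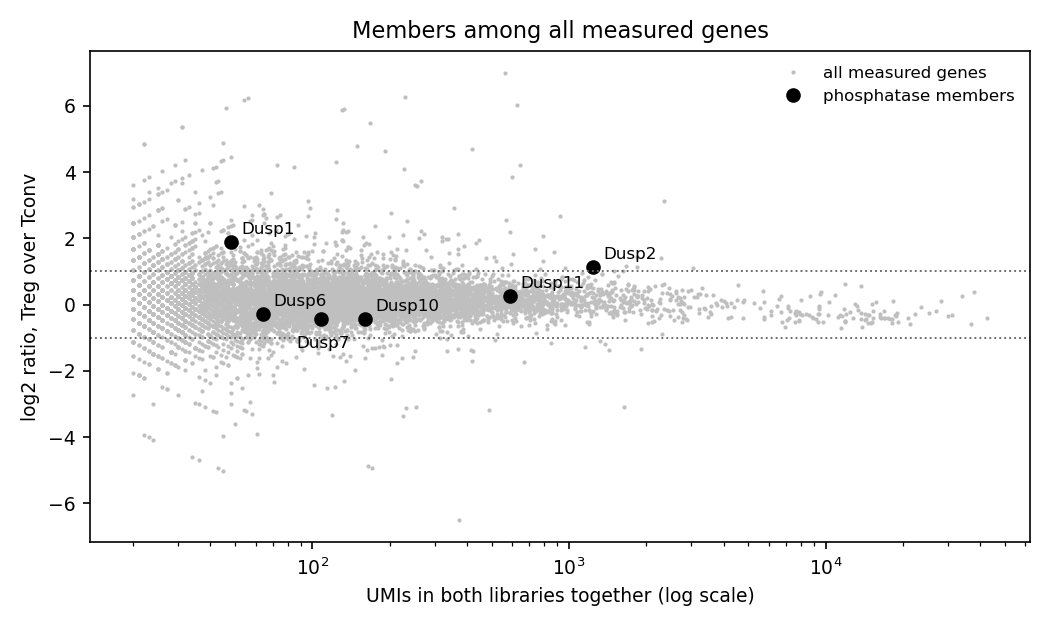
Log2 ratio of Treg over Tconv against the UMIs of both libraries together (log scale) for the 8988 measured genes in grey and the 6 measured members in black, with dotted lines at 2-fold. Dusp2 at 1.13 sits at the upper edge of genes with a like number of UMIs, while Dusp1 at 1.88 sits where counts are few and ratios spread widely.

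The share of cells with a Dusp2 UMI was also higher in Treg, but by less than the UMI sum. After thinning each cell to 1000 UMIs, which kept 738 Treg and 1108 Tconv cells, 17.6% of Treg (14.9 to 20.6) and 10.6% of Tconv cells (8.89 to 12.6) held one. Without thinning, the shares were 21.6% of Treg and 12.8% of Tconv cells. The log2 ratio of the thinned shares was 0.73 (0.36 to 1.10), beside 1.26 (1.02 to 1.5002) for the summed UMIs of the same thinned cells. A thinned cell with any Dusp2 UMI held 2.91 on average in Treg and 2.01 in Tconv, and without thinning 4.33 in Treg and 2.86 in Tconv. No cell type known to lack Dusp2 was at hand to measure its share from free RNA in droplets. Within Treg, cells with a Foxp3 UMI had 473 CPM of Dusp2 (384 to 577) and cells without one 527 CPM (467 to 593), with overlapping intervals.

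Dusp2 was unevenly spread over cells in both groups. In Treg, 640 of 816 cells had none, 68 had 1, 13 had 2, 39 had 3 to 5, 42 had 6 to 10 and 14 had more than 10, up to 20. In Tconv, 1134 of 1300 cells had none, 74 had 1, 25 had 2, 47 had 3 to 5, 13 had 6 to 10 and 7 had more than 10, up to 14. Cells with at least 6 UMIs thus held 68.0% of all Dusp2 UMIs in Treg and 36.6% in Tconv. By a fixed part of the cells the order was the reverse. The highest 5% of cells held 56.2% of the Dusp2 UMIs in Treg (41 cells) and 72.6% in Tconv (65 cells).

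The Fano factor, the variance over the mean of thinned UMIs per cell (1 for independent counts), put a number on this. It was 4.18 in Treg and 2.81 in Tconv for Dusp2. Of the 50 genes nearest to Dusp2 in mean UMIs, all 50 had a lower Fano factor in Treg (median 1.87) and all 50 in Tconv (median 1.42). Among cells with any UMI, 31.8% in Treg and 12.05% in Tconv had at least 6 of Dusp2, beside medians of 8.05% and 0.641% over the 50 nearest genes. Those medians, too, are higher in Treg, as are the mapped reads per UMI, and the part of either in the higher UMI number per Treg cell was not tested.

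Dusp11 had the same kind of spread to a lesser degree, and the rarer members lay within the range of genes of like mean. Its Fano factor was 2.89 in Treg and 1.83 in Tconv, above 48 and 46 of its 50 nearest genes. It was in 9.21% of thinned Treg and 12.5% of thinned Tconv cells, with 2.34 UMIs per positive cell in Treg and 1.63 in Tconv, while unthinned shares were 14.3% and 14.8%. The lower thinned share in Treg did not hold when cells were thinned to 500 UMIs, where the log2 ratio of shares was 0.17 (-0.37 to 0.70). Fano factors of Dusp1, Dusp6, Dusp7 and Dusp10 were between 1.45 and 1.85 in Treg and between 1.12 and 1.85 in Tconv. Dusp10 reached 7 UMIs in a Treg cell and 4 in a Tconv cell, and Dusp7 reached 5 in Treg and 2 in Tconv.

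**Figure D3:**
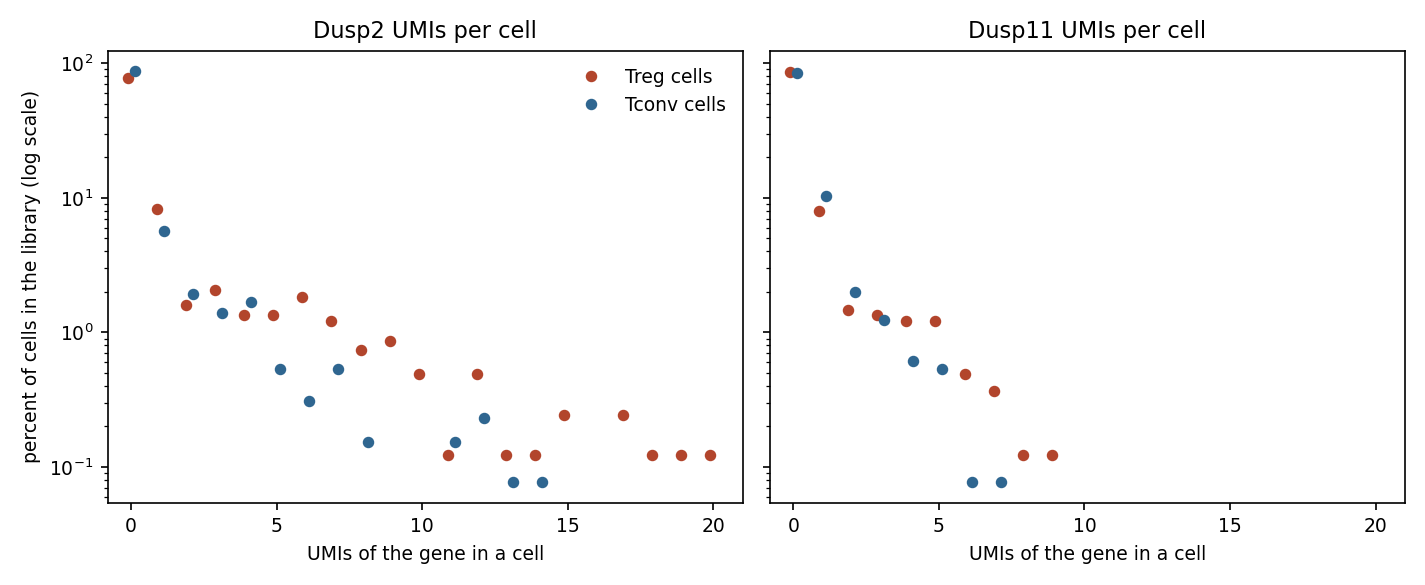
Percent of cells in each library (log scale) that held a given number of UMIs of Dusp2 (left) or Dusp11 (right), without thinning, for Treg and Tconv. Dusp2 reaches 20 UMIs in a Treg cell and 14 in a Tconv cell, and Dusp11 reaches 9 and 7.

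The thinned cells were sorted within each library by their UMIs of 17 TCR-response genes (such as Nr4a1, Egr1, Egr2, Cd69, Irf4, Myc and Cd5), a list that holds none of the 8 phosphatases, to ask whether the phosphatases go with signs of recent TCR signalling. In Treg, 456 cells had 0 such UMIs, 201 had 1 or 2 and 81 had 3 or more. In Tconv, the numbers were 749, 300 and 59 cells. The top class was 10.98% of Treg and 5.32% of Tconv cells. The classes are ranges of a count and not cell types, and 94 Treg and 98 Tconv cells lay at 2 or 3 UMIs, next to the line.

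Dusp2 was higher in cells with more TCR-response UMIs in both libraries. In Treg it was at 382 CPM in cells with 0 list UMIs, 502 CPM with 1 or 2 and 1272 CPM with 3 or more. In Tconv it was at 180 CPM, 227 CPM and 576 CPM in the same order of classes. The log2 ratio of the top over the bottom class was 1.74 (1.37 to 2.10) in Treg and 1.68 (1.09 to 2.23) in Tconv, so the 2 libraries show a like size. Most of the step lies between the middle and the top class.

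The share of cells with Dusp2 followed less closely. It was 16.0%, 15.9% and 30.9% from the bottom to the top class in Treg, and 9.21%, 13% and 16.9% in Tconv. In Treg the interval of the top class (21.07 to 42.11) lay above that of the bottom class (12.76 to 19.70). In Tconv, 10 of 59 top class cells held Dusp2, and the interval (8.44 to 28.97) overlapped that of the bottom class (7.24 to 11.51). A rise in the Tconv share is therefore not settled by these cells. Depth before thinning was similar across the classes, with medians of 1743, 1776 and 1833 UMIs in Treg and 1585, 1631.5 and 1599 in Tconv. Cells with markers of another type were 6.17% of the top and 6.14% of the bottom class in Treg, and 1.69% and 1.74% in Tconv, and without them the log2 ratios were 1.73 and 1.69. Leaving Cd5 and Nfatc1, or Myc and Cd69, out of the list gave ratios between 1.78 and 2.07, so the ratio was as large with 1 pair left out at a time. A list without both pairs of these widely detected genes was not tried. With a top class that starts at 2 list UMIs, the ratio was 1.27 (0.93 to 1.61) in Treg and 0.84 (0.30 to 1.35) in Tconv, which is under 2-fold.

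Within each class range, Treg had more Dusp2 than Tconv. The same range does not match the cells for TCR response, since the list's UMIs came from unlike genes. Cd83 made up 5.29% of them in Treg and 0.516% in Tconv, and Myc 18.7% and 24.5%. The part of TCR response in the higher Dusp2 of Treg was not tested. The log2 ratio of Treg over Tconv was 1.08 (0.75 to 1.42) in cells with 0 list UMIs, 1.15 (0.69 to 1.61) with 1 or 2, and 1.14 (0.57 to 1.75) with 3 or more. Over all classes, the same thinned cells gave 1.26 (1.02 to 1.5002).

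Sorted the other way, cells rich in Dusp2 were rich in TCR-response UMIs. The 59 Treg cells with at least 3 thinned Dusp2 UMIs had 2136 CPM of the list, and the 608 Treg cells with none had 801 CPM, a log2 ratio of 1.41 (1.12 to 1.70). The 36 Tconv cells with at least 3 had 1667 CPM and the 990 with none had 547 CPM, a log2 ratio of 1.61 (1.20 to 1.99). The immediate early and dissociation list, genes that also respond to tissue handling such as Junb, Ier2 and Hspa8, differed less between the same cells, by 0.37 (0.15 to 0.58) in Treg and 0.56 (0.29 to 0.83) in Tconv. T lineage genes differed by -0.18 (-0.42 to 0.05) in Treg and 0.17 (-0.09 to 0.42) in Tconv, with intervals that include 0. Resting T genes differed by 0.24 (0.02 to 0.45) in Treg and -0.40 (-0.66 to -0.16) in Tconv. Before thinning, the median depth was 1986 UMIs in the Treg cells with at least 3 and 1745 in those with none, and 1897.5 and 1579.5 UMIs in the Tconv cells, and the part of depth in these ratios was not tested.

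No other member with enough UMIs in the classes showed this pattern. With at least 20 UMIs in the top and bottom class together, 1 of 2 members in Treg was at least 2-fold higher in the top class (Dusp2 and not Dusp11), where 8.85% of genes were. In Tconv it was 1 of 4 (Dusp2 and not Dusp7, Dusp10 or Dusp11), where 10.1% of genes were. Dusp7 had a ratio of -1.42 there (-6.77 to 1.15), past 2-fold in the other direction with an interval that includes 0. Dusp11 was at 184, 179 and 123 CPM from the bottom to the top class in Treg and at 171, 200 and 136 CPM in Tconv, with log2 ratios of -0.58 (-1.69 to 0.37) and -0.33 (-1.58 to 0.69). The top class held 10 Dusp11 UMIs in Treg and 8 in Tconv, and another random draw of the thinning moved the Treg ratio to -2.90 (-5.97 to -0.998), so its size is not settled at this depth.

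Dusp6, a classic target and brake of ERK signalling, leaned the same way as Dusp2 on very few counts. In the top class it had 5 UMIs in 3 of 81 Treg cells, and in the bottom class 4 UMIs in 4 of 456 cells. In Tconv it had 5 UMIs in 3 of 59 cells in the top class and 12 UMIs in 11 of 749 cells in the bottom class. The log2 ratios were 2.81 (0.60 to 5.15) in Treg and 2.40 (0.55 to 4.01) in Tconv, while another random draw of the thinning gave 1.62 (-0.83 to 3.49) in Tconv. Dusp1 in the top class rested on 2 UMIs in Treg and on 3 UMIs of 1 cell in Tconv, and no direction is read from it.

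**Figure D4:**
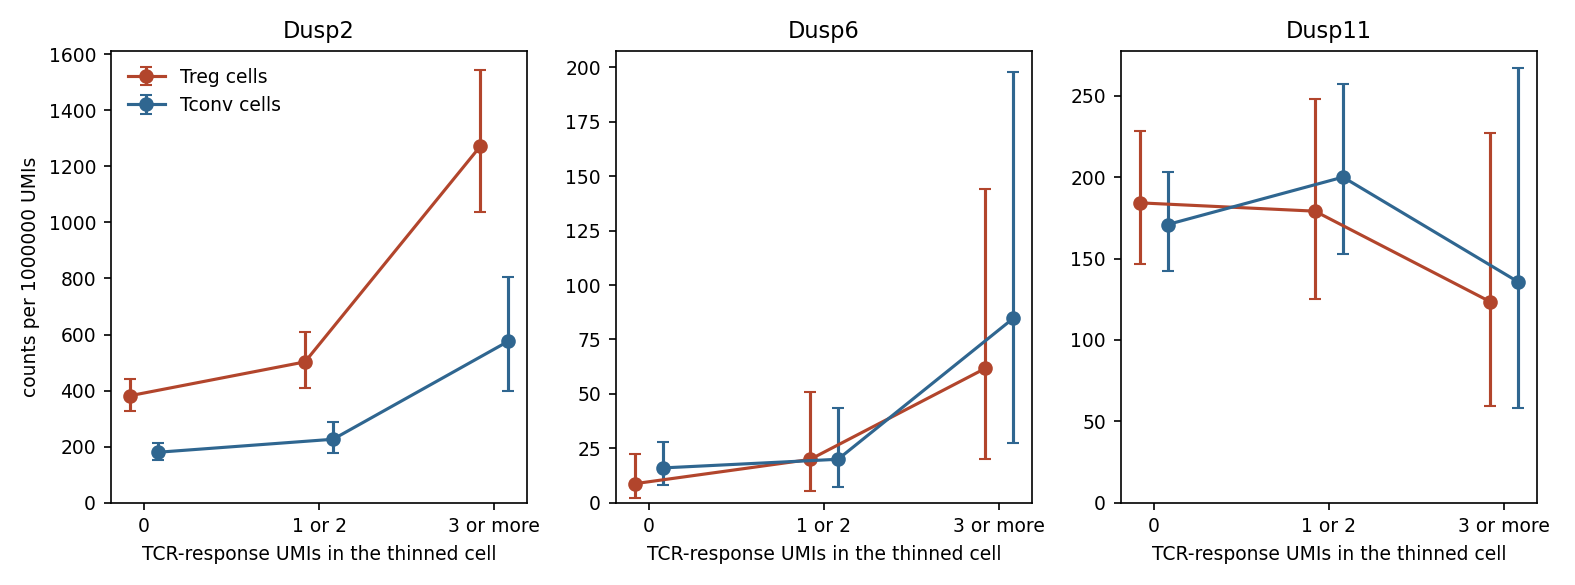
Level in counts per 1000000 UMIs of Dusp2, Dusp6 and Dusp11 in thinned cells with 0, 1 or 2, and 3 or more UMIs of the TCR-response list, for Treg and Tconv, with exact 95% Poisson intervals. Dusp2 reaches 1272 in Treg and 576 in Tconv in the top class, the Dusp6 intervals are wide, and those of Dusp11 overlap across classes.

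Other gene lists sorted the cells differently. By immediate early and dissociation UMIs, the Dusp2 ratio of top over bottom class was 0.39 (-0.04 to 0.85) in Treg and 1.40 (0.71 to 2.18) in Tconv, where 11.4% and 8.47% of genes were at least 2-fold higher, as were 0 of 2 members in Treg and 1 of 4 (Dusp2) in Tconv. By effector or memory genes (such as S100a4, Cd44 and Itgb1) it was 0.06 (-0.34 to 0.47) in Treg and 0.06 (-0.39 to 0.53) in Tconv, and 0 of 2 members in Treg and 0 of 4 in Tconv were at least 2-fold higher, beside 10.4% and 5.07% of genes. By resting T cell genes (such as Ccr7, Lef1 and Tcf7) it was 0.54 (0.08 to 1.02) in Treg and -0.27 (-1.15 to 0.75) in Tconv, and 0 of 2 members in Treg and 1 of 4 in Tconv (Dusp10, interval across 0) were at least 2-fold higher, beside 8.47% and 8.65% of genes. Among these lists, with classes of 0 and of 3 or more UMIs, only TCR response gave a Dusp2 ratio whose interval lay above 1 in both libraries. That top class held 103 Dusp2 UMIs in 25 of 81 Treg cells and 34 UMIs in 10 of 59 Tconv cells. With UMIs clumped in so few cells these intervals are too narrow, and where a bound falls does not settle a difference between lists. The same cutoff took unlike parts of the cells. By immediate early UMIs the top class was 43.1% of Treg and 38.4% of Tconv cells, and by effector or memory genes 39.6% and 28.1%. By resting genes it was 44.2% and 79.1%, beside 10.98% and 5.32% by TCR response. The part of class size in this contrast was not tested.

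Dusp1 and Dusp6 had under 20 UMIs in the top and bottom resting classes together in each library, so no direction is read from them. Dusp1 had 4 UMIs in 326 Treg cells with 3 or more resting UMIs and 7 UMIs in 145 Treg cells with 0, a log2 ratio of -1.98 (-4.20 to 0.00). In Tconv it had 4 UMIs in 876 cells of the top class and 3 UMIs, all from 1 cell, in 44 of the bottom class, with a ratio of -3.90 (-6.46 to -1.13). Dusp6 had 4 UMIs in the top class and 3 in the bottom class of Treg, with a ratio of -0.75 (-3.32 to 2.02). Dusp6 had 12 UMIs in 876 Tconv cells of the top class and 6 UMIs in 44 of the bottom class, a log2 ratio of -3.32 (-4.84 to -1.62). Of those 44 cells, 22.7% held markers of another type, beside 1.03% of the top class, and the part of these cells in the Dusp6 ratio was not tested.

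**Figure D5:**
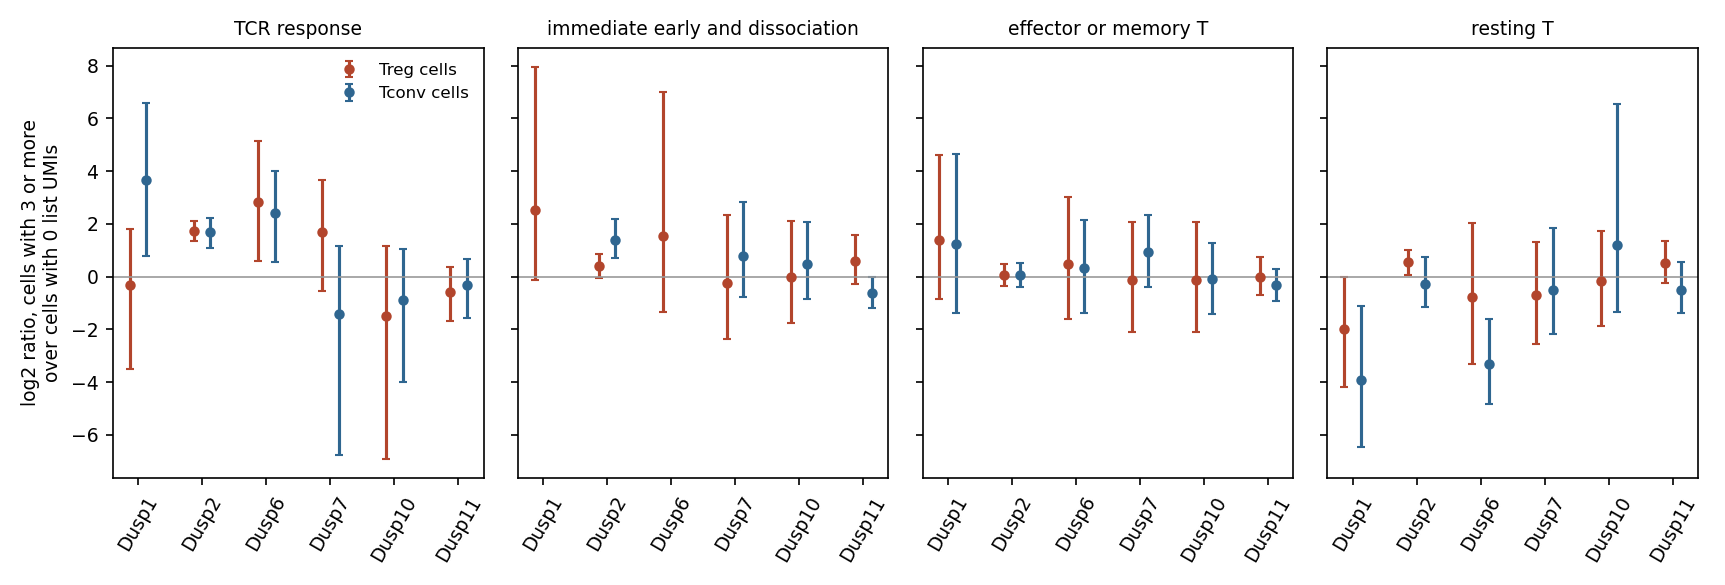
Log2 ratio of each member between cells with 3 or more and cells with 0 UMIs of 4 gene lists, within Treg and within Tconv, with exact 95% intervals; ratios with no UMI in a class are left out. Dusp2 has narrow intervals, above 1 for the TCR-response list in both libraries and around 0 for the effector or memory list. They cover counting error only and are too narrow for a gene clumped in few cells.

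Detection together in single cells was also counted gene by gene. For each TCR-response gene found in at least 20 thinned cells, the number of cells that also held Dusp2 was divided by the number that the product of the 2 shares gives. The median of this quotient was 1.62 over 7 genes in Treg and 1.503 over 6 genes in Tconv, beside 1.02 and 0.999 over all genes. It lay below 1 for 2 of the 7 genes in Treg (Myc at 0.71 and Nfatc1 at 0.85) and for 1 of the 6 in Tconv (Myc at 0.90). Each of these quotients has an interval that includes 1. Dusp11 gave medians of 0.80 in Treg and 1.08 in Tconv. The quotient for Dusp2 reached 2 for 1 of 7 genes in Treg (0.901% of all genes) and 1 of 6 in Tconv (2.52% of all genes), in both cases Egr1. For Dusp11 it did so for 0 of 7 in Treg (2.94% of all genes) and 0 of 6 in Tconv (1.84%).

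Cd5, whose level on T cells tracks the strength of TCR signalling, was in a Dusp2 cell in 31 Treg cells, where the product gave 20.8, and in 23 Tconv cells, where it gave 14.1. Egr1, an early transcription factor downstream of ERK, was with Dusp2 in 10 Treg cells (product 4.76) and 7 Tconv cells (product 2.77). The Cd5 quotient was 1.49 (1.01 to 2.12) in Treg and 1.64 (1.04 to 2.45) in Tconv. For Egr1 it was 2.10 (1.01 to 3.87) and 2.53 (1.02 to 5.21), so all lower bounds only just cleared 1. Myc was with Dusp2 in 5 Treg cells (product 7.05) and 9 Tconv cells (product 10.01). Its quotients of 0.71 (0.23 to 1.66) and 0.90 (0.41 to 1.71) have intervals that include 1. Dusp2 and Dusp11 shared 8 Treg cells (product 11.98) and 15 Tconv cells (product 14.7). The Treg quotient was 0.67 (0.29 to 1.32), an interval that includes 1. At least 1 of the 7 MAP kinase phosphatases was in 23.4% of Treg (20.4 to 26.7) and 19.8% of Tconv cells (17.5 to 22.2), and 2 or more in 1.90% of Treg and 1.35% of Tconv cells.

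The genes whose thinned counts followed Dusp2 most closely over cells, by the mean of the Pearson correlations within Treg (738 cells) and within Tconv (1108 cells) among 2649 genes, were Id3, Krr1, Tmem248, Cd5 and Nktr. Their mean r was between 0.0875 and 0.107, which is weak, and with counts this sparse the order is a description only. For Dusp11 they were Pdhb, Prorsd1, Tmem248, Anapc11 and Gm20257, with a mean r between 0.0770 and 0.0897. All cells of a library share its depth and preparation.

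Other dual-specificity phosphatases were mostly at the level of the rarer members or below. Of 18, 5 had at least 20 UMIs, 1 of these was at least 2-fold higher in Treg, where 8.61% of all genes tested were, and none lower, where 3.6% were. That gene, Dusp22, also known as JKAP and a phosphatase that acts on the TCR kinase Lck, counted 32 UMIs in Treg against 17 in Tconv, and its log2 ratio was 1.36 (0.47 to 2.30). Dusp12, Dusp19, Dusp28 and Styx had log2 ratios of 0.48, 0.09, 0.14 and -0.26, all with intervals that include 0. Dusp9, a cytoplasmic ERK phosphatase of the same subfamily as Dusp6 and Dusp7, was under the 20 UMI line and was chosen after its values were seen: it had 12 UMIs in 8 Treg cells, up to 5 in a cell, and none in Tconv, or at least 5.46-fold higher when Tconv is set to 3 UMIs. Dusp8 and Dusp16, the closest relatives of Dusp10, had 1 and 4 UMIs over both libraries.

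Of 19 measured genes of the ERK cascade, on which several of these phosphatases act, 1 was at least 2-fold higher in Treg (8.61% of all genes tested) and none lower (3.6% of all genes), with a median log2 ratio of -0.08. The one is Spry1, an inhibitor of receptor signalling to ERK, which counted 30 UMIs in Treg against 1 in Tconv (log2 ratio 5.35, interval 2.77 to 10.71). Mapk3, which encodes the substrate kinase ERK1, counted 80 UMIs in Treg against 107 in Tconv, with a log2 ratio of 0.03 (-0.41 to 0.46).

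In the p38 and JNK cascades, 7 of 19 measured genes were at least 2-fold higher in Treg, where 8.61% of all genes tested were. None was lower, where 3.6% of all genes were. The median log2 ratio was 0.51, and with TMM factors 5 were higher and 1 lower. The stress sensors Gadd45a, Gadd45b and Gadd45g, which bind and activate the JNK and p38 kinase MEKK4, were all higher. Gadd45b counted 47 UMIs in Treg against 20 in Tconv, and its log2 ratio was 1.68 (0.90 to 2.51), and Gadd45a and Gadd45g had ratios of 2.23 and 3.11. Mapkapk2, the kinase downstream of p38, counted 178 UMIs in Treg against 118 in Tconv, and its log2 ratio was 1.04 (0.70 to 1.39). Mapk14, which encodes p38 alpha, went the other way at 56 UMIs in Treg against 148 in Tconv (log2 ratio -0.95, interval -1.42 to -0.50).

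Of 11 measured TCR-response genes, 5 were at least 2-fold higher in Treg (Nr4a1, Egr2, Cd83, Irf4 and Tnfaip3), beside 8.61% of all genes tested. None was lower, beside 3.6% of all genes, and the median log2 ratio was 0.90. Dusp2 at 1.13 lies near Nr4a1, an early response gene used as a reporter of TCR signals, at 1.14 (0.71 to 1.58), from 118 UMIs in Treg against 73 in Tconv. In the immediate early and dissociation list, 1 of 13 genes was at least 2-fold higher in Treg, beside 8.61% of all genes. None was lower, beside 3.6% of all genes, and the median was 0.35. The higher gene, Jun, had 20 UMIs in Treg and 11 in Tconv. Fos counted 9 UMIs in Treg against 21 in Tconv, and its log2 ratio was -0.77 (-2.08 to 0.41). Junb, Jund, Ier5 and Klf6 had log2 ratios of 0.68, 0.51, 0.50 and 0.55, with intervals above 0. Hspa8, the best counted gene of the list, had 939 UMIs in Treg against 1414 in Tconv and went the other way. Its log2 ratio was -0.14 (-0.26 to -0.02). Of the 13 genes, 7 had an interval above 0 and 1, Hspa8, had an interval below it.

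The ratios of both detected nuclear phosphatases were as large without cells that held markers of another type. In that case the log2 ratio of Treg over Tconv was 1.98 (0.99 to 3.06) for Dusp1 and 1.14 (0.97 to 1.31) for Dusp2. In the Treg cells with such markers Dusp2 was at 348 CPM (199 to 565), against 523 CPM (471 to 580) in Treg cells without them, and Dusp1 had no UMI in the 46 thinned Treg and 26 thinned Tconv cells with such markers. Leaving out cells whose barcode is in both libraries gave 1.13 for Dusp2 and 1.88 for Dusp1.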

How the data were processed

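Spleen CD4+ T cells were profiled with inDrops, and each deposited column is 1 cell. The deposited values are raw UMI counts per gene and cell, whole numbers per the values themselves. TopHat2, SAMtools and the build mm10 are named, without versions, per the submitters' processing notes. Annotation, UMI counter and cell filters were not given in the sources used here. Cells were grouped by their titles; no column of another series was present. With 1 library per group no p-value was computed.

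UMIs were summed per library as CPM, with exact Poisson intervals for sums, exact conditional intervals for ratios and Clopper-Pearson intervals for shares, at 95%. A library at 0 was set to a floor of 3 UMIs. Ratios were read for genes with at least 20 UMIs, and at least 2-fold was the call. Shares, Fano factors, classes and co-detection used cells thinned to 1000 UMIs without replacement, which left out 78 Treg and 192 Tconv shallower cells. PCR copies are removed by UMIs, but UMIs of a gene clump in cells, so intervals are too narrow. Alternatives were thinning to 500 UMIs, a list class from 2 UMIs, TMM factors (edgeR 4.0.16 in R 4.3.3, used for scaling only), totals without 91 ribosomal protein genes, and leaving out cells. No doublet caller was run; cells above 2 times the median UMIs (30 Treg and 17 Tconv) were left out in an alternative. Python 3.11.15, numpy 2.4.6, scipy 1.17.1, pandas 2.3.3 and matplotlib 3.10.9 were used, and the scripts were tested on simulated data.

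The 16 gene lists held 192 entries, and 8 of these are not rows of the table. Named genes are all members, other Dusp genes with at least 20 UMIs, up to 4 per list with interval bounds farthest from 1, and 5 genes per member by likeness; a few others are named as background or counts. The members and lists were chosen with earlier results of these data known. Gene positions are from GENCODE M21 on GRCm38, the same build as mm10. Of the 8 members, 4 (Dusp1, Dusp5, Dusp10 and Dusp11) overlap another annotated gene there, and their reads may not be told apart from that gene's, since the use of strand in counting is not stated.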

Additional observations from a re-analysis of the deposited data

How the results depend on the processing

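With 1 library per group, no result has a replicate check, and genes with few UMIs (Dusp1, Dusp6, Dusp7 and Dusp10) are limited by counting. No paired analysis was possible because each group is 1 library and no result comes from a test. Of 341 recomputed values, 296 stayed near their main value, 45 moved and none of the called values changed sign. For ratios and shares, near means inside the main interval. Counts, Fano factors and co-detection medians have no interval and were held to a fixed fold. The choice of the total decides whether Dusp2 passes 2-fold: 1 member instead of 2 was at least 2-fold higher with TMM factors and with ribosomal protein genes left out. Another draw of the thinning, chosen after seeing the data as were leaving out shared barcodes and the list without Cd5 and Nfatc1, gave 1.31 for the Dusp2 log2 ratio, within a range of 0.97 to 1.31 over all alternatives.

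Thinning to 500 UMIs lowered the Dusp2 Fano factor in Treg to 2.14 and gave a Dusp2 class ratio of 2.29 in Tconv. A top class that starts at 2 TCR-response UMIs gave class ratios of 1.27 in Treg and 0.84 in Tconv. With genes of at least 1 UMI, the counts higher in Treg were 3 for other dual-specificity phosphatases (and 1 lower), 2 for the ERK cascade and 2 for the immediate early list; with at least 50 UMIs they were 0, 0 and 0, and 4 for the p38 and JNK cascades. Without cells with markers of another type 1 ERK cascade gene was at least 2-fold lower. With TMM factors, and with ribosomal protein genes left out, 1 gene of the p38 and JNK cascades was lower. The cause of these changes was not tested beyond the fewer UMIs, cells or genes or the shifted total that each alternative brings.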
